A study of Mus musculus with 4 samples.

Results

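The SLC25 carriers of cultured mouse natural killer (NK) cells are described here through the accessible chromatin around their genes. The members are the 46 protein-coding genes of the mouse assembly GRCm38 whose symbol starts with Slc25a, 1 family member having been left out. An accessible region belonged to a carrier when that carrier was the nearest of 21887 protein-coding genes, by distance to the gene's span. By this rule 155 of 91266 accessible regions belonged to carriers, and 42 of the 46 genes held at least 1. Regions were mapped by ATAC-seq, in which a transposase cuts and tags open chromatin. The NK cells were wild type, from C57BL/6 mice, of splenic origin by the series title, and were cultured for 72 hours in interleukin-15 (IL-15). The 4 samples were 2 biological replicates in a high dose and 2 in a low dose of the cytokine, of about 75000 cells each, and the concentrations were not stated. Both groups were cultured with the cytokine, and no group without it was described.

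What was measured is a set of positions. The authors deposited 1 list of all accessible regions and 2 lists of regions that differed between the doses, named up and down, with 3845 and 1275 entries. No region carries a value per sample, a fold change or a p-value, so there is no spread between replicates to set beside a call, and sequencing depth is unknown. Which dose was the reference is not stated in the sources used here, and neither list is assigned to a dose below. All comparisons of the carriers with other genes are descriptions without a test, since neighbouring regions and genes are not replicates of a culture. Intervals are 95% Clopper-Pearson intervals and, like the upper limits given for a count of 0 (3 counts of the total), cover counting error only.

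SLC25 proteins are encoded in the nucleus, and nearly all reside in the inner mitochondrial membrane, where each exchanges or imports particular metabolites, nucleotides or cofactors. They join cytosolic and mitochondrial metabolism: ADP and phosphate enter and ATP leaves for oxidative phosphorylation, citrate leaves for lipid synthesis, and aspartate, glutamate and malate carry reducing equivalents in the malate-aspartate shuttle. IL-15 sustains the survival of NK cells and stimulates their metabolism.

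The up list held 1 region at an annotated start of a carrier gene, and its sequence is shown for that reason. The gene is Slc25a22, which encodes a mitochondrial glutamate carrier and lies on the minus strand at chr7:141429749-141437874. RefSeq places 3 starts in it, at the gene's start end, 2.5 kb inside and 3.28 kb inside. The windows run from 250 bases before to 50 bases after each start and are printed 5′ to 3′ from RefSeq (GRCm38.p6, minus strand), with the bases inside an accessible region in capitals. The outer window, chr7:141437825-141438124, had 161 of its 300 bases in an unlisted region of 810 bp. The middle window, chr7:141435326-141435625, had all 300 bases in an unlisted region of 557 bp. The inner window, chr7:141434545-141434844, had 166 of 300 bases in the up region.
Slc25a22 outer start: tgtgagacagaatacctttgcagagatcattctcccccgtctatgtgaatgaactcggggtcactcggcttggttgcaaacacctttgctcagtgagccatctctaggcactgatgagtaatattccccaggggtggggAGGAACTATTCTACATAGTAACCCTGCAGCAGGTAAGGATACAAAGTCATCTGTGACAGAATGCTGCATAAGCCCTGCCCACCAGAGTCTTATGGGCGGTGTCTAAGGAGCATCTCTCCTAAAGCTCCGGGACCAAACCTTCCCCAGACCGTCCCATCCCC
Slc25a22 middle start: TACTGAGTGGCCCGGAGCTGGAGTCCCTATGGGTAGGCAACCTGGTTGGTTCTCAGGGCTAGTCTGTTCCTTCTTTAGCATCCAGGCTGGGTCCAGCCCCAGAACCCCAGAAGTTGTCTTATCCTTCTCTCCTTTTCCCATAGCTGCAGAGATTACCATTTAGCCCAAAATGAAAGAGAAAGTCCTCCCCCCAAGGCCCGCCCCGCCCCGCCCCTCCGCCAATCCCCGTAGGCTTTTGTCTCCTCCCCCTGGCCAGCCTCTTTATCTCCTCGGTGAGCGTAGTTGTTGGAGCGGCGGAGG
Slc25a22 inner start: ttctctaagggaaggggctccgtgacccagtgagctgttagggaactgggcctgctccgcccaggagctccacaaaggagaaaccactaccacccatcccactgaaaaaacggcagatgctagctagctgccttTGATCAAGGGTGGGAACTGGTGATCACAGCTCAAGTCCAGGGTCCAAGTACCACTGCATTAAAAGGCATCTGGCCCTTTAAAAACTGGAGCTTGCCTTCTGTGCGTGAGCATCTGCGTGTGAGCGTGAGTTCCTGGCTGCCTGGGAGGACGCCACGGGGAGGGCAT

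Few carrier regions were in the authors' lists. The up list held 3 of the 155 (1.94%, interval 0.401 to 5.55%), against 4.21% of all regions. The down list held 1 (0.645%, interval 0.0163 to 3.54%), against 1.40% of all regions. Both intervals include the value over all regions, so a lower share among the carriers was not detectable with this number of regions. Counted by gene, 2 of 46 carriers (4.35%) were nearest to an up region, against 12.0% of all protein-coding genes, and 1 (2.17%) was nearest to a down region, against 4.04%. The remaining 151 regions (97.4%) were in neither list. The 3 genes concerned were Slc25a13 and Slc25a22, both up, and Slc25a51, down, and each of their 4 listed regions lay within the gene and away from its ends. Of other genes' listed regions, 45.8% of the up and 54.2% of the down ones lay so. Only 5.31% and 7.46% of them lay at an end, so a listed region away from ends was usual and not particular to carriers.

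Slc25a13 encodes citrin, a calcium-sensitive exchanger of aspartate and glutamate in the malate-aspartate shuttle. The gene spans 176 kb on the minus strand at chr6:6041218-6217304 and held 7 regions, all inside it. The 2 up regions were 503 bp at chr6:6149238-6149740 and 359 bp at chr6:6156099-6156457. They lay 67.6 and 60.8 kb from the nearer end of the gene, which was its start end, and no other region lay in the 6.36 kb between them. The next region, 371 bp at chr6:6161077-6161447, was 4.62 kb away and was in neither list. The region over the annotated start, the widest of the gene at 1049 bp, was in neither list. The change called by the authors at Slc25a13 was thus in its interior and not at its start.

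Slc25a22 held 3 regions, 1 over each of its annotated starts. The up region, 218 bp at chr7:141434493-141434710, covered the inner start and lay 3.16 kb from the nearer end of the gene. It was narrower than most entries of its list, of which 1.53% were narrower still and whose median width was 453 bp. The neighbouring unlisted region, over the middle start, was 376 bp away. The nearest other listed region was an up region 145 kb away that belonged to Ap2a2, so the listed region was isolated at this locus.

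Slc25a51 encodes the mitochondrial importer of NAD. The gene spans 13.0 kb at chr4:45395923-45408917 and held 4 regions, of 997, 408, 909 and 1578 bp in order of position. The widest and the 997 bp region covered the 2 ends of the gene and were in neither list. The down region was the narrowest, 408 bp at chr4:45402325-45402732, 6.18 kb from the nearer end. Only 154 bp separated it from the 909 bp region at chr4:45402887-45403795, which was in neither list. The nearest other listed region was an up region 54.9 kb away that belonged to Shb. No start window for Slc25a51 was in the RefSeq promoter table used.

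**Figure D1:**
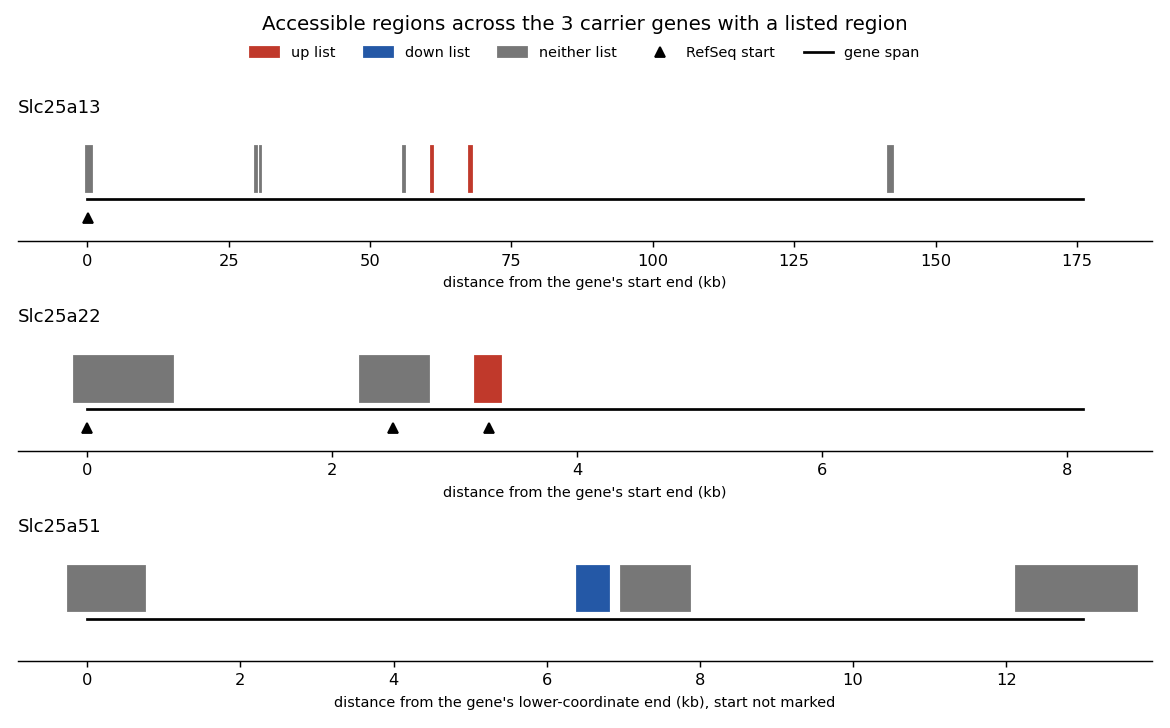
Position of the accessible regions (boxes, to scale) along Slc25a13, Slc25a22 and Slc25a51, with distance in kb from the start end of the gene, or from its lower-coordinate end for Slc25a51, on the horizontal axis. The 3 up regions and the 1 down region all lie inside the genes, and the regions over the gene ends are in neither list.

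Grouped by role, the 4 listed regions fell in 2 of 13 groups, and with so few no group can be set apart from the others. The malate-aspartate shuttle and glutamate import group had 2 of 5 genes with an up region, against 12.0% of all genes, and 3 of 19 regions in the up list, against 4.21% of all regions. This count rests on 2 genes, 1 of which holds 2 of the 3 regions. The other members of the group had no listed region: Slc25a12, the other aspartate-glutamate exchanger, held 7 regions, Slc25a11, the exchanger of oxoglutarate for malate, held 1, and Slc25a18, another glutamate carrier, held 1. The group of nucleotide, NAD and cofactor carriers had 1 of 9 genes with a down region, against 4.04% of all genes, and 1 of 39 regions in the down list, against 1.40% of all regions. This group included the 2 members with the most regions, Slc25a26, the carrier of S-adenosylmethionine, and Slc25a33, a pyrimidine nucleotide carrier, with 9 each and none listed. Also unlisted were the 7 regions of Slc25a36, another pyrimidine nucleotide carrier, the 4 of the peroxisomal Slc25a17, the 2 each of Slc25a16 and Slc25a42, which are linked to coenzyme A, and the single region of Slc25a32, for folate and FAD.

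The carriers that supply oxidative phosphorylation with ADP and phosphate were described by the position of their regions. Slc25a4 and Slc25a5, which exchange ADP for ATP, held 4 and 2 regions, and Slc25a3, the phosphate carrier, held 2. Each of these 3 genes had 1 region at its start, of 1226, 1293 and 1123 bp. None of their 8 regions was listed, against 5.61% of all regions, and 8 regions are too few to show a difference from that share. Slc25a31, the ADP/ATP exchanger known from testis, was the nearest gene of no region. The ADP/ATP carriers were therefore split into 2 genes with an open start and 1 without.

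The other groups held no listed region either, and none of them held more than 22 regions. Among carriers of citrate, dicarboxylates and 2-oxodicarboxylates, Slc25a1, the citrate carrier, held 5 regions, Slc25a10, the dicarboxylate carrier, 3, and Slc25a21, the 2-oxodicarboxylate carrier, 7. The iron importers Slc25a37 (mitoferrin 1) and Slc25a28 (mitoferrin 2) held 5 and 4. The glutathione importers differed, with 8 regions at Slc25a40 and 2 at Slc25a39, and the latter included the widest carrier region, of 1804 bp. The carnitine-acylcarnitine carrier Slc25a20 held 2 regions and Slc25a29, for basic amino acids, 1. Of the other amino acid carriers, the ornithine carrier Slc25a15 held 3, Slc25a44, for branched-chain amino acids, 2, Slc25a38, for glycine, 1, and Slc25a2 none.

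Calcium-regulated exchangers of ATP-Mg for phosphate included Slc25a25 with 5 regions, Slc25a23 with 3 and Slc25a41 with none. The uncoupling-protein-like Slc25a30, Slc25a27 and Slc25a14 held 6, 4 and 3. Slc25a46, which resides in the outer membrane, held 3. The 8 members whose transport is not named here held 22 regions, from 7 at Slc25a53 and 4 each at Slc25a43 and Slc25a48 to none at Slc25a34. The remaining ones were Slc25a54 with 3 regions, Slc25a35 with 2, and Slc25a45 and Slc25a47 with 1 each.

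**Figure D2:**
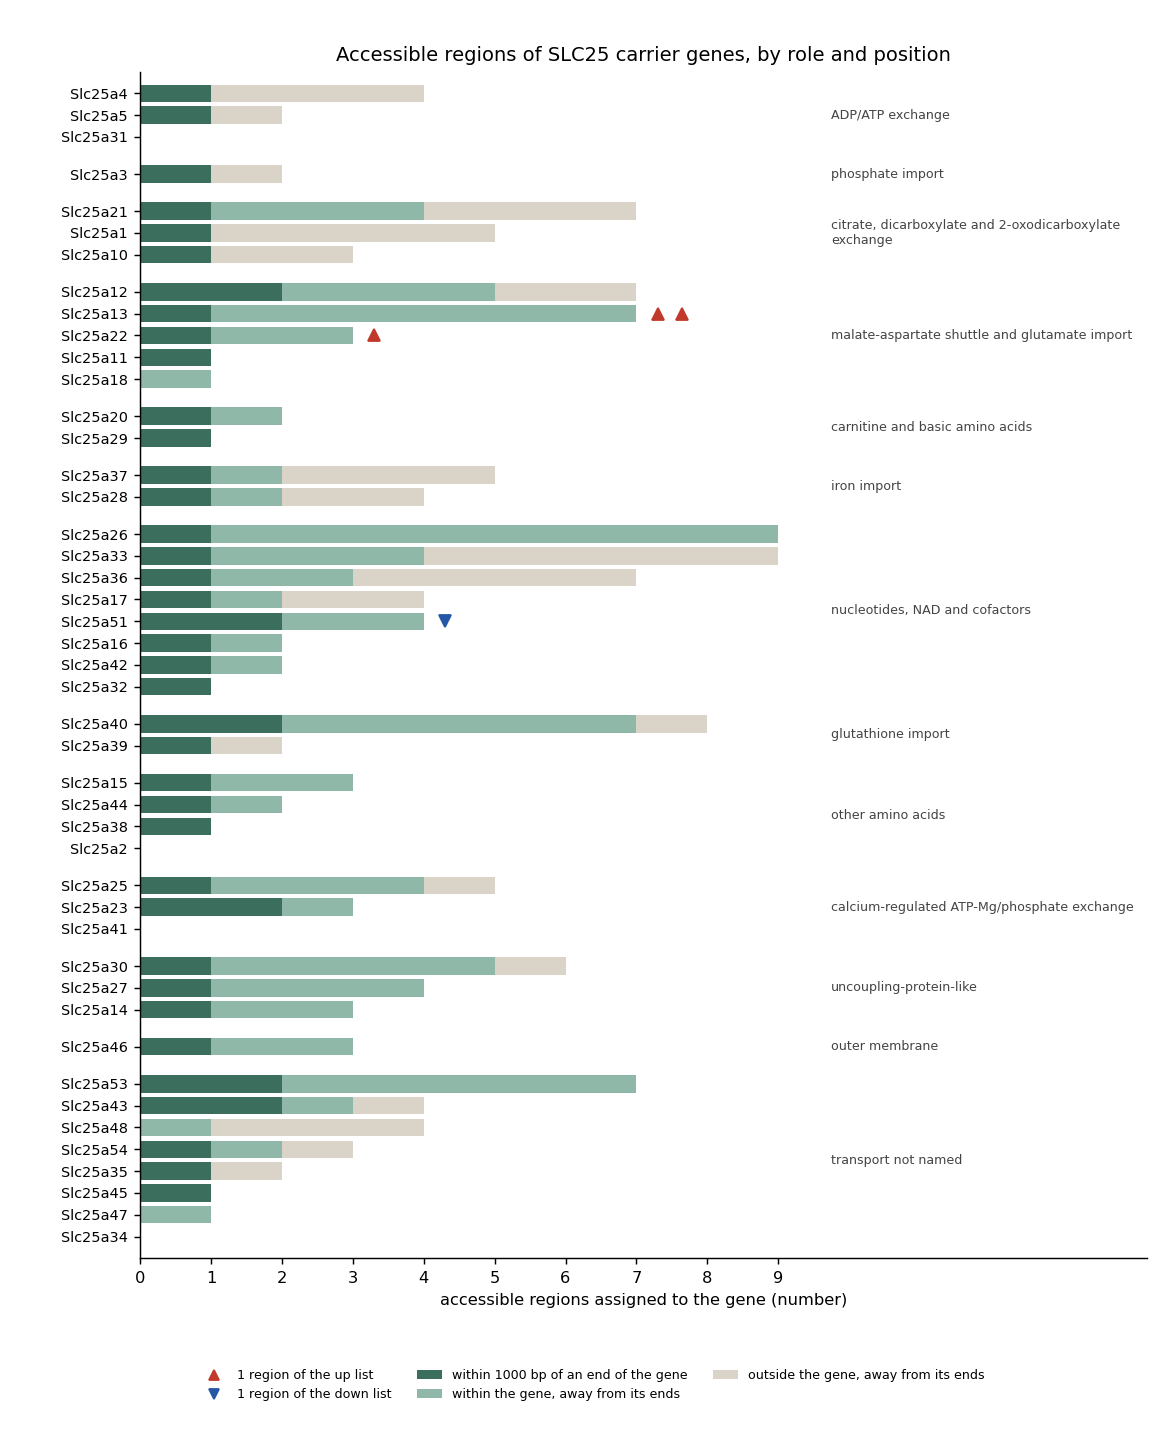
Number of accessible regions assigned to each of 45 of the 46 carrier genes, grouped by role and split by position, with a triangle for each region in the authors' up or down list. Of the 155 regions, 3 are up (Slc25a13 and Slc25a22) and 1 is down (Slc25a51), and 4 genes hold no region.

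Carrier genes had a median of 3 regions (interquartile range 1.25 to 4.75, highest 9), against a median of 2 over all protein-coding genes (0 to 5, highest 121). The genes without a region were 4 of 46 (8.7%), against 25.1% of all protein-coding genes. Among genes with at least 1 region the median was 3 for carriers and for other genes. The carriers were spread over 19 chromosomes, and 3 pairs lay within 100 kb of each other: Slc25a41 and Slc25a23 at 2.06 kb, Slc25a29 and Slc25a47 at 14 kb, and Slc25a43 and Slc25a5 at 18.3 kb. In the closest pair Slc25a23 held all 3 regions and Slc25a41 none. The carriers did not share a genomic neighbourhood beyond these pairs.

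Gene ends were a frequent site of carrier regions. A region within 1000 bp of either end of its gene was counted as lying at an end, and 45 of the 155 did (29.0%, interval 22.0 to 36.9%), against 16.9% of all regions. Such a region was present at 39 of the 46 genes (84.8%), against 55% of all protein-coding genes. The 7 genes without one were the 4 with no region and Slc25a18, Slc25a47 and Slc25a48. Another 6 genes had 2 regions at their ends: Slc25a12, Slc25a23, Slc25a40, Slc25a43, Slc25a51 and Slc25a53. None of the 45 end regions was listed, which allows a listed share of up to 6.67%, and over all genes 1.94% of end regions were listed. Away from ends, 4 of 110 carrier regions were listed (3.64%, interval 1.0 to 9.05%), against 6.36% of all such regions.

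Because a gene with more regions has more chances of a listed one and a lower share at its ends, carriers were also set beside genes with similar numbers of regions. Among genes with 2 to 3 regions, 15 of 15 carriers had a region at an end, against 72.2% of 5065 other genes. Among those with 4 to 6 regions it was 10 of 11 against 77.4%, and among those with 7 to 9 regions 8 of 8 against 81.7%. Of the genes with 1 region, 6 of 8 carriers and 60.2% of other genes had it at an end. The carrier share was the higher one in each of these 4 classes. At the rates of the other genes in each class, 30.7 carriers would have a region at an end, where 39 did, and 38.4 regions would lie at ends, where 45 did. No carrier held 10 or more regions, while 2504 other genes did.

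The same classes gave the rates for the lists. Other genes with 2 to 3 regions had an up region in 7.15% of cases, and 1 of 15 carriers did (Slc25a22). With 4 to 6 regions it was 17.5% and 0 of 11 carriers, and with 7 to 9 regions 27.6% and 1 of 8 (Slc25a13). At these rates 5.38 carriers would have an up region, where 2 did, and 1.22 would have a down region, where 1 did. The number of carriers with an up region was thus below that of similar genes, and the number with a down region was close to it. No test of these differences was run.

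**Figure D3:**
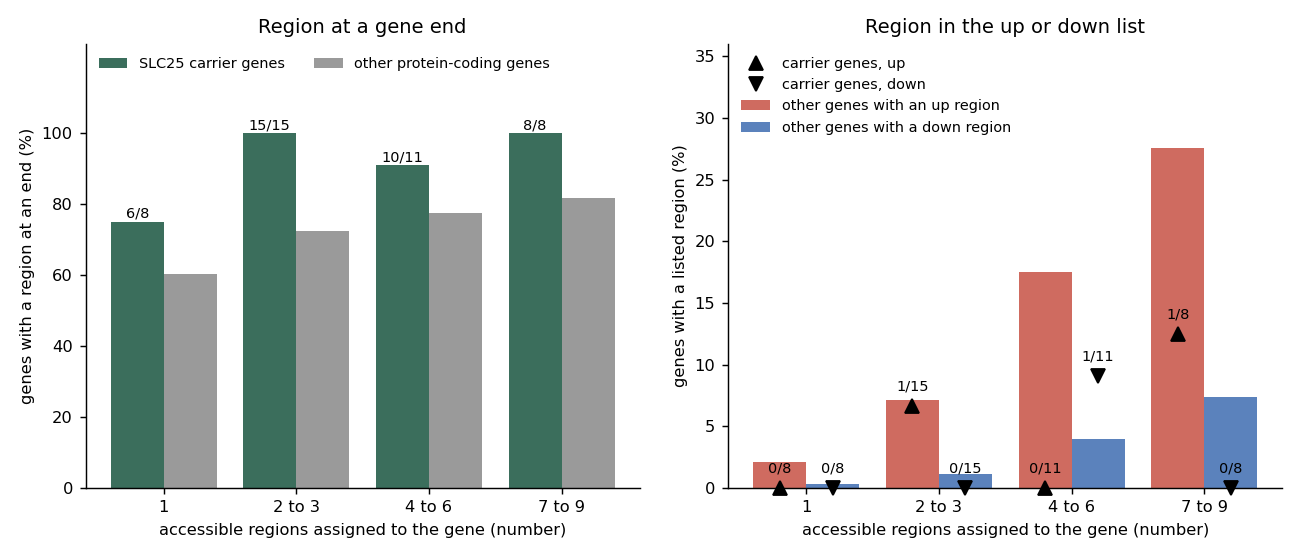
Percentage of genes with a region at an end (left) and with a region in the up or down list (right), for carrier genes and other protein-coding genes in classes of the number of regions per gene, with counts of carriers printed as fractions. Carriers have the higher percentage at ends in each class, and 2 of them have an up region and 1 a down region.

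Position and width went together. The median carrier region at a gene end was 948 bp wide (quartiles 710 and 1123 bp). Away from ends the median was 298.5 bp (quartiles 234.25 and 461.5 bp). The corresponding medians of other genes' regions were 798 and 359 bp. Of the 33 carriers with an end region and at least 1 further region, 28 had their widest region at an end. The exceptions were Slc25a17, Slc25a21, Slc25a37, Slc25a40 and Slc25a54. The narrowest end region, of 154 bp, was that of Slc25a54. The widest end regions after that of Slc25a39 were 1578 bp at Slc25a51 and 1497 bp at Slc25a33. Of the 4 listed carrier regions, all away from ends, those of 359, 408 and 503 bp were wider than the median of 298.5 bp for carrier regions there, and that of 218 bp was narrower.

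**Figure D4:**
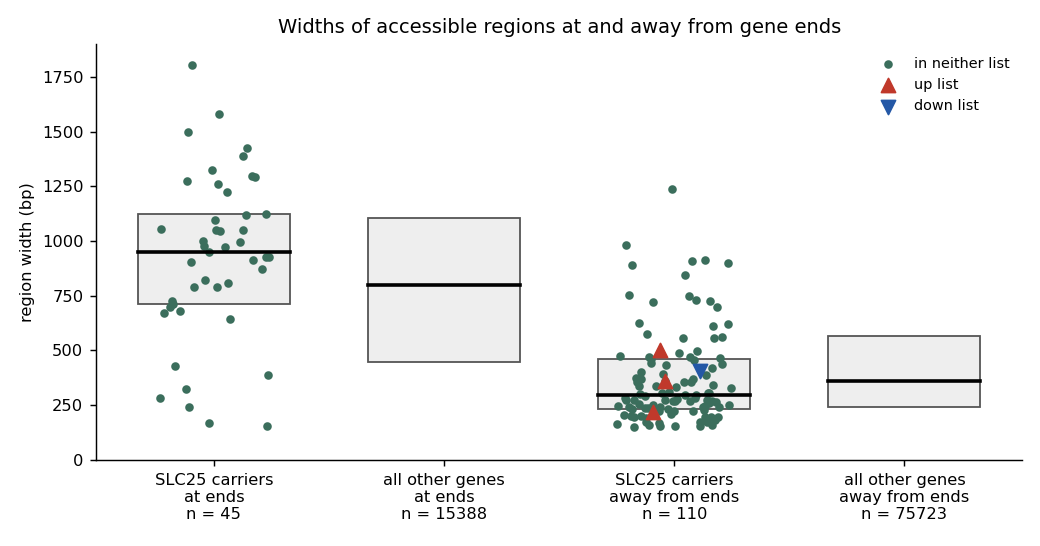
Width in bp of carrier regions (points) at gene ends and away from them, with boxes for the interquartile range and a line for the median, beside the same boxes for regions of all other genes. Carrier regions at ends have a median of 948 bp and those away from ends of 298.5 bp, and the 4 listed regions are among the latter.

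Most carrier regions that were not at an end lay within their gene. Of the 155, 68 (43.9%) lay within the gene and away from its ends, 25 (16.1%) outside by up to 10 kb and 17 (11%) outside by 10 to 100 kb. For regions of other genes these shares were 46.4%, 11.3% and 19.3%. No carrier region lay farther away, which allows a share of up to 1.94%, while 6.11% of the regions of other genes did. The most distant carrier region was 62443 bp from Slc25a36. Listed regions that lay within 50 kb of a carrier but nearer to another gene numbered 4, all up. Of these, 2 were 5.47 and 16.0 kb from Slc25a18 and belonged to Atp6v1e1, 1 was 34.8 kb from Slc25a34 and belonged to Plekhm2, and 1 was 48.7 kb from Slc25a51 and belonged to Shb.

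Annotated starts were examined without regard to the nearest gene. RefSeq start windows were found for 35 of the 46 carriers, 45 windows in all. An accessible region covered 35 of the 45 starts (77.8%), and 27 of the 35 genes (77.1%, interval 59.9 to 89.6%) had at least 1 covered start, against 54.7% of 17492 protein-coding genes. The 8 genes with no covered start were Slc25a18, Slc25a21, Slc25a28, Slc25a31, Slc25a34, Slc25a47, Slc25a48 and Slc25a54. For Slc25a28 and Slc25a21 wide regions, of 1272 and 975 bp, lay 324 and 99 bp inside the start end of the gene. The regions over carrier starts had a median width of 1045 bp (168 to 1804 bp, 31 regions). An up region covered 1 of the 45 starts (2.22%), the inner start of Slc25a22, and no down region covered any, which allows a share of up to 6.67%. Over all genes 0.32% of starts were in an up region and 0.113% in a down region.

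Some carriers adjoin or overlap a neighbouring gene, and then the nearest gene cannot always be told from position. A region touched a carrier and another gene at the same distances in 6 cases. It was counted for Slc25a11, Slc25a27 and Slc25a32 in 3 of them, and for Dbf4, Tmem82 and Pmf1 in the others, where the carriers were Slc25a40, Slc25a34 and Slc25a44. The region at the start of Slc25a40, of 1012 bp, was thus not among the 155. None of the 6 was in either list.

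The letters of the start windows were compared for 6 short motifs, searched on both strands: the GC box GGGCGG, the CCAAT box CCAAT, the E-box CACGTG, an ETS motif CCGGAAG, an NRF1 core GCGCATGC and a STAT motif TTCNNNGAA. Genes were counted when a covered start window held the motif. The GC box was in 25 of 27 carriers (92.6%) and 70.6% of all genes with a covered start. The CCAAT box was in 15 (55.6%, against 40.6%), the ETS motif in 6 (22.2%, against 20.7%) and the STAT motif in 1, Slc25a36 (3.7%, against 6.96%). The E-box was in 6 (22.2%, against 11.4%): Slc25a1, Slc25a13, Slc25a14, Slc25a15, Slc25a33 and Slc25a36. The NRF1 core was in 0 of 27, which allows a share of up to 11.1%, against 5.89%. Over all 21263 windows, covered or not, 46.2% held the GC box, 38.2% the CCAAT box, 11.6% the ETS motif, 7.84% the E-box, 7.69% the STAT motif and 3.52% the NRF1 core. A match describes letters and does not show binding.

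The windows of 5 carriers are shown with motif matches in capitals, from RefSeq (GRCm38.p6), and no matches of different motifs overlapped in them. Slc25a1 (chr16:17928170-17928469, minus strand) and Slc25a13 (chr6:6217124-6217423, minus strand) are shown for the E-box at a covered start. The 3 ADP/ATP carriers are shown because their starts differed: Slc25a4 (chr8:46211013-46211312, minus strand) and Slc25a5 (chrX:36795347-36795646, plus strand) were covered by a region and Slc25a31 (chr3:40708621-40708920, plus strand) was not. CCGCCC and ATTGG are the GC box and the CCAAT box read on the other strand, and GCATGCGC is the NRF1 core.
Slc25a1: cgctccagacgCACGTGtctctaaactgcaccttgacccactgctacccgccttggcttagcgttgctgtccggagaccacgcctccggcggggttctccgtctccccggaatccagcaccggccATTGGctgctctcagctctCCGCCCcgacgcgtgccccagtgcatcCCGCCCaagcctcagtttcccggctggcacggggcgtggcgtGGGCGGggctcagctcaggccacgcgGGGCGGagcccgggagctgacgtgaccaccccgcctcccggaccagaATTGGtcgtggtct
Slc25a13: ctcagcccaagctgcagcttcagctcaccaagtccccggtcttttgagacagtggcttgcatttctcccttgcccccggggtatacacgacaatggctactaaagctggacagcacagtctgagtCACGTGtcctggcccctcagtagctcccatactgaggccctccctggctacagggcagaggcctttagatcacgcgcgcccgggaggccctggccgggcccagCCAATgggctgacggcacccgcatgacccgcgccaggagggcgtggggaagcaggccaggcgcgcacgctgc
Slc25a4: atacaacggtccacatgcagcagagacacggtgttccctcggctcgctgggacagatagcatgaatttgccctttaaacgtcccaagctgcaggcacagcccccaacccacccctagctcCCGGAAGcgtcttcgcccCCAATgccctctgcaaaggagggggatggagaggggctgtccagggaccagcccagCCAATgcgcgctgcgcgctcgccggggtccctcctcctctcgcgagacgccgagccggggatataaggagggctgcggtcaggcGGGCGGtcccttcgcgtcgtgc
Slc25a5: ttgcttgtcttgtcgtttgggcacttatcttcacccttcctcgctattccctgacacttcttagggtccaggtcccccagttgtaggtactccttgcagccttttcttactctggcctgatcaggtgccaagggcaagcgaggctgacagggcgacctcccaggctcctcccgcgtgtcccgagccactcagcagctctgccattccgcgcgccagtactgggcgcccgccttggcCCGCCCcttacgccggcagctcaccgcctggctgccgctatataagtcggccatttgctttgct
Slc25a31: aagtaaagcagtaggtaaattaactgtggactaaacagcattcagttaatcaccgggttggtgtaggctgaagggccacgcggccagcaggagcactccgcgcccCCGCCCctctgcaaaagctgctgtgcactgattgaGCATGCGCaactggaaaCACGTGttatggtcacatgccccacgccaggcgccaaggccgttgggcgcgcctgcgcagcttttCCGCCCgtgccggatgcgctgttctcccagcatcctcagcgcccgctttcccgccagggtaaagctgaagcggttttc

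The window of Slc25a31 held 22 CpG dinucleotides, between the 18 of Slc25a5 and the 25 of Slc25a4, and its GC content of 59.7% was near the 61.0% of Slc25a5. The uncovered start of Slc25a31 was therefore not set apart by these counts. It held the E-box and the NRF1 core, which the 2 covered windows lacked. Over the carriers, covered windows had a median GC content of 60.7% (35 windows) and uncovered ones of 54.8% (10 windows), against 62.0% and 49.3% over all genes.

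Genes that work with the carriers were counted in the same way, from lists of 36 genes with 151 regions. None of these was in the up list, which allows a share of up to 1.99%, against 4.21% of all regions. The 36 genes were not matched to others on region counts or positions. Of their 151 regions, 34 lay at gene ends, and 1.94% of all end regions were in either list. The down list held 1, against 1.40% of all regions, and neither difference was tested. It was a region of 615 bp at chr10:59608053-59608667 within Mcu, the pore of the mitochondrial calcium uniporter, which held 19 regions. The 5 family members under other symbols (Ucp1, Ucp2, Ucp3, Mtch1 and Mtch2) held 11 regions, and 3 of the 5 had a region at an end. Of the 10 genes for the import of carriers through TIM22 and TOM70, 7 held a region and 5 had one at an end. Of 15 other transporters of the mitochondrial membranes, Mcu included, 13 had a region at an end. All 6 regulators of mitochondrial biogenesis had a region at an end, among them Ppargc1a (PGC-1α) with 22 regions and Nrf1 with 15, none listed.

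Other gene families give the scale for these counts. The 328 remaining Slc genes, most of them carriers of other membranes, also had a median of 3 regions. Of these genes 57.3% had a region at an end, and 16.2% of their regions lay at ends, while 58 (17.7%) had a region of the up list and 9 (2.74%) one of the down list. Of 40 genes for subunits of respiratory complex I (Nduf), 72.5% had a region at an end and 36.4% of the regions lay at ends, while 3 (7.5%) had a region of the up list and 0 one of the down list, which allows up to 7.5%. Of 78 genes for mitochondrial ribosomal proteins (Mrpl and Mrps), 76.9% had a region at an end and 33.3% of the regions lay at ends, while 3 (3.85%) had a region of the up list and 0 one of the down list, which allows up to 3.85%. The carriers' share of regions at ends, 29.0%, was thus below that of both sets of mitochondrial genes, while their share of genes with a region at an end, 84.8%, was above it. These sets were not matched on the number of regions or on length: the median was 1 region for Nduf and 2 for Mrpl and Mrps genes, and the median gene length was 7.67 and 7.69 kb, against 21.1 kb for the carriers and 29.9 kb for the remaining Slc genes. The shares of the sets are therefore given side by side, and their differences from the carriers were not tested.

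The identity of the cells was checked on the list of all regions. All 10 NK cell markers examined, among them Ncr1, Eomes, Tbx21 and Prf1, had a region within 1000 bp of an end of the gene, whichever gene was nearest to it, as had 4 of 6 T cell markers (Cd3d, Cd3e, Cd4 and Cd5), 1 of 5 B cell markers (Cd79a) and 1 of 5 myeloid markers (Cd14). By nearest gene, 10 of the 116 regions of the NK cell markers were in the down list, against 1.40% of all regions. They belonged to 4 of the 10 genes (Gzma, Il2rb, Klrb1c and Ncr1), against 4.04% of all genes, 7.4% of non-carrier genes with 7 to 9 regions and 22.3% of those with 10 or more. The NK cell markers held a median of 10 regions (6 to 31). None of the T cell or myeloid markers had a listed region. An open gene end is not expression, and the part of other cells in the carrier regions was not tested.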

How the data were processed

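Samples were grouped by the dose in their titles. The submitters' processing notes name the build mm10 (GRCm38) and BWA, ArchR, MACS2 and HOMER 4.11.1, with no role. Peak calling per sample or pooled, the differential test, its threshold and the reference dose are not given in the sources used here. The authors deposited region positions and widths only. There are 0 columns of values per sample, so no test of the doses was run and depth is unknown.

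Starts were raised by 1 to 1-based positions, and each listed region was identical to a region of the full list. Regions were assigned to the nearest RefSeq protein-coding gene span (GRCm38.p6), with a tie settled by the nearer gene end and, failing that, by gene order along the chromosome. The assignment was tested on simulated regions planted at genes clear of other genes. Overlapping or adjoining genes, where a region can be tied, were not covered by that test. As a check of the build, 17.1% of regions lay within 1000 bp of a gene end, and 6.6% and 6.54% did after genes were moved by 100 kb. Regions were not annotated by exon, intron or UTR. Classes of similar genes held 1, 2 to 3, 4 to 6 or 7 to 9 regions. Carriers are named by role, those with a listed region in full. The members and lists were chosen with earlier results of these data known. 1 family member was left out, and some gene-level results are not reported here. Python 3.11.15, pandas 2.3.3, numpy 2.4.6 and scipy 1.17.1 were used.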

Additional observations from a re-analysis of the deposited data

How the results depend on the processing

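No paired analysis was possible because the region lists carry positions alone, so that replicates 1 and 2 of each dose could be neither matched nor left out. For 8 results, 42 alternatives were run, 9 of them chosen after seeing the data, and 41 changed a count by at most 1.5 times or kept a share within its interval. The share of carrier regions at gene ends was 29.0% and became 38.7% with a distance of 3000 bp, since a longer distance admits more regions. The other settings gave 23.2% (100 bp) to 34.1% (nearest gene of any biotype). The number of carriers with an up region was 2 and became 3 when a region counted for every gene within 10 kb, through the region near Slc25a18 that is nearer to Atp6v1e1. Giving tied regions to the carriers made 158 regions, 48 of them at ends of 40 genes. The median number of regions per carrier ranged from 2 to 4. With 4 listed regions, no share among the lists is precise.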
